A study of Homo sapiens with 12 samples.

Results

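The genes described here carry the type I interferon signal in human cells, and comprise the ligand IFNB1, the receptor chains IFNAR1 and IFNAR2, the kinases JAK1, JAK2 and TYK2, the transcription factors STAT2 and STAT3, and the feedback inhibitor SOCS3. The 9 genes were taken by name from the 54127 gene rows of the RNAseq, with each symbol mapped to its Ensembl identifier. No threshold on measured values was used, but earlier results of these data were known when the genes were chosen. Of these 9, 7 had enough reads to be tested (at least 10 counts in at least 6 libraries, a filter passed by 14505 genes in all), while IFNB1 and SOCS3 did not. The question addressed was whether inhibition of the PDZ binding kinase (PBK) altered transcription in prostate cancer cells. All libraries were from C4-2, an androgen-responsive and castration-resistant line derived from LNCaP prostate cancer cells, grown in RPMI with 10% serum. A set of 6 libraries came from cells given the vehicle DMSO, and 6 came from cells given 1 µM of the PBK inhibitor HI-TOPK-032, called PBKi, with 6 h of treatment.

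Interferon beta leaves the producing cell and binds a receptor built from the IFNAR1 and IFNAR2 chains. TYK2, held by IFNAR1, and JAK1, held by IFNAR2, then phosphorylate STAT proteins, and STAT2 and IRF9 enter the complex ISGF3, which activates genes carrying an interferon-stimulated response element (ISRE). STAT3 serves chiefly the receptors of the interleukin 6 family, which share the chain gp130, and JAK2 serves cytokine receptors including these. SOCS3 is induced by STAT3 and blocks the gp130 receptors. The LNCaP line has been described as poorly responsive to interferon through lack of JAK1, which gives the level of JAK1 in its C4-2 derivative particular interest.

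The reads on genes ranged from 9663203 to 28029908 per library in DMSO and from 13122415 to 22817803 in PBKi. Levels are given as CPM, read counts per 1000000 reads of a library, after correction of library size by TMM (the trimmed mean of M-values, a scaling between libraries). PBK itself was at 219 ± 37.1 CPM (SD, n = 6) in DMSO and 164 ± 15.03 CPM in PBKi. The 10 luminal prostate markers examined all passed the filter, with a summed level of 4779 to 5742 CPM in DMSO and 2442 to 3325 CPM in PBKi, where 5 were called lower and 1 higher. Of 11 immune cell markers only CD68, a lysosomal protein abundant in macrophages, passed the filter. It was called higher in PBKi (log2 fold change 0.68), and made up 78.8% of the summed immune marker level in DMSO and 82.8% in PBKi. That sum was 3.18 to 5.32 CPM in DMSO and 5.96 to 7.30 CPM in PBKi, and the other 10 markers had few reads. PTPRC, the general leukocyte marker, had at most 3 counts in any library, and CD3D and MS4A1 were at 0 in all 12. LYZ, the lysozyme of myeloid cells, had 0 counts in every DMSO library and 1 to 6 in every PBKi library (15 in all), and CSF1R, a macrophage receptor, had 3 to 6 counts per library in DMSO and 2 to 9 in PBKi. CD14, of the same list, went the other way, with 27 counts in DMSO and 21 in PBKi, and NKG7 had 28 and 27. Fibroblast and endothelial markers summed to 25.9 to 31.6 CPM in DMSO and 24.4 to 29.3 CPM in PBKi, of which COL1A1 made up 65.8% and 72.0%, with 4 of the 9 listed passing the filter, 2 called lower and none higher. The part of these shifts in the results was not tested. Nothing in the sources used here says that the 6 libraries of a group came from separate cultures, so that the p-values measure the spread between these libraries, which may be technical.

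The promoter of IFNB1 is shown because it was the single gene of the 9 whose reads were found in 1 group alone. The sequence, from RefSeq on GRCh38.p14, is the 250 bases before the transcription start at chr9:21077943-21078192 on the minus strand. Capitals mark the match to the STAT site TTCNNNGAA, 218 to 210 bases before the start, and the match to a form of the kappaB site (GGG, any 3 bases, TTCC), 66 to 57 bases before it, the latter within the virus-inducible enhancer that controls this gene. Segments of 40 bases from 3 interferon-stimulated genes that report on the pathway are shown with it, with capitals marking matches to the ISRE core (GAAA, any 2 bases, GAAA). These lie on the plus strand at chr10:89392498-89392537 for IFIT1, chr1:1013372-1013411 for ISG15 and chr2:6877617-6877656 for RSAD2, and a match on the opposite strand appears as TTTC, any 2 bases, TTTC.
IFNB1: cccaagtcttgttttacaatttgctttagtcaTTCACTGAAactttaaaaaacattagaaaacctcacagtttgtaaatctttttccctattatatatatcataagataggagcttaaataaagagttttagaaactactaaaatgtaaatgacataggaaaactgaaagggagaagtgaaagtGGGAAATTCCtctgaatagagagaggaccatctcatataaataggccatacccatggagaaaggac
IFIT1: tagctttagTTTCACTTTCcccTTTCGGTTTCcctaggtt
ISG15: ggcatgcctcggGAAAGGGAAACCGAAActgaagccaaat
RSAD2: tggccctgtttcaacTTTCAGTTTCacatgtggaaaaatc

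Both strands of 35116 promoters, each of 300 bases (250 before the start and 50 after), were searched in the same way. The ISRE core was in 3.57% of them. It was in none of the 15 promoters listed for the genes described, which covered 8 of the 9 (the table holds none for IFNAR2), but in at least 1 promoter of 12 of the 14 interferon-stimulated genes with an entry. In ISG15 the matches overlap each other. The STAT site was in 7.66% of all promoters, and in that of IFNB1 alone among these genes. The kappaB form was in 6.52% of all promoters, and in those of IFNB1 and SOCS3. A match describes the letters in this window and not the binding of a factor.

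Expression differed widely between the genes. Levels were compared between genes as CPM per kilobase of the canonical transcript, and placed among the protein-coding genes with a row. STAT3 was the most abundant, at 32.6 CPM per kilobase in DMSO (range 27.8 to 38.2, n = 6), above 86.7% of coding genes. IFNAR1 followed at 17.4 (15.9 to 18.7), above 77.1%. STAT2 at 10.4 (9.41 to 11.3) and TYK2 at 10.0 (8.88 to 11.6) did not differ beyond their spread.

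The remaining components lay lower. IFNAR2 at 2.48 CPM per kilobase (2.24 to 2.66) and JAK2 at 2.37 (2.17 to 2.71) were likewise within each other's range, close to the median coding gene. JAK1 had 0.966 CPM per kilobase (0.856 to 1.10), above 43.2% of coding genes, and was the least abundant of the 7 genes tested in every DMSO library. SOCS3 had 0.176 (0.101 to 0.280), and IFNB1 had no read in DMSO. With the length of all exons in place of the canonical transcript, JAK2 stood clearly above IFNAR2 (2.11 against 0.728 in DMSO), since IFNAR2 has many annotated exons. In PBKi, JAK2 was at 3.97 CPM per kilobase (3.41 to 4.45), apart from IFNAR2 at 1.98 (1.79 to 2.12), whereas JAK1 at 1.55 (1.10 to 2.13) overlapped IFNAR2.

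**Figure D1:**
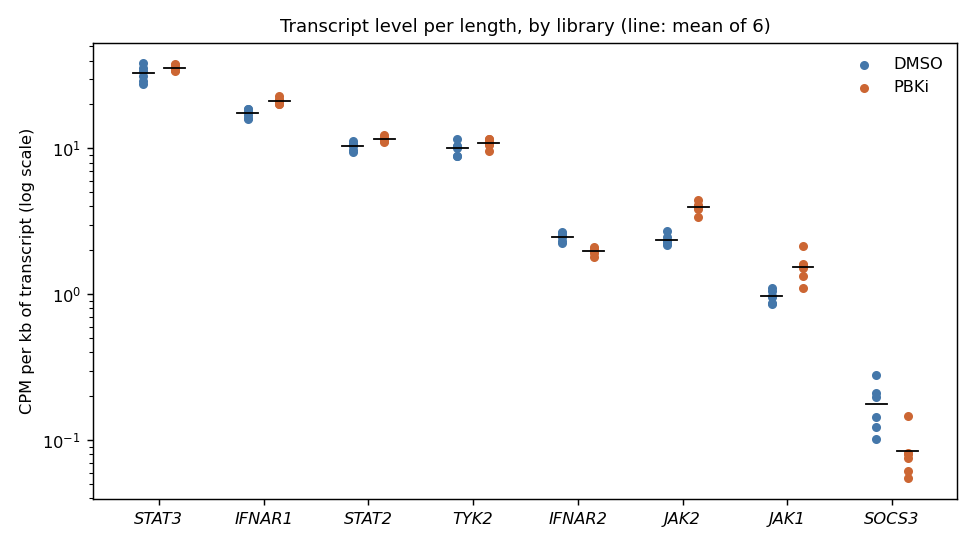
Level of each gene per library in CPM per kilobase of canonical transcript on a log axis, with DMSO and PBKi libraries as separate points, a line for each mean, and IFNB1 left out because its DMSO values are 0. STAT3 and IFNAR1 lie highest, at means of 32.6 and 17.4 in DMSO, and JAK1 lies lowest of the genes tested, at 0.966 in DMSO and 1.55 in PBKi.

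Of the 7 genes tested, 4 were called higher in PBKi (IFNAR1, JAK1, JAK2 and STAT2), 1 was called lower (IFNAR2) and 2 passed in neither direction (TYK2 and STAT3), with the quasi-likelihood test of edgeR and p-values adjusted over all 14505 genes (Benjamini-Hochberg) at 0.05. PBKi moved much of the transcriptome, with 20.1% of all genes tested called higher and 21.6% called lower, 41.7% in either direction. In 3 of the 7 (IFNAR1, IFNAR2 and JAK2) the CPM of the groups did not overlap, as was so of 20.1% of all genes tested. The median log2 fold change was 0.17 over these 7 and -0.012 over all genes tested, and the median absolute change was 0.27 against 0.19. Calls and groups without overlap were thus common in the whole dataset, and no change is called particular to these genes. How many genes changed as much as JAK1 and JAK2 was not counted. In bulk RNA, fewer cells carrying a transcript and less of it per cell cannot be told apart.

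**Figure D2:**
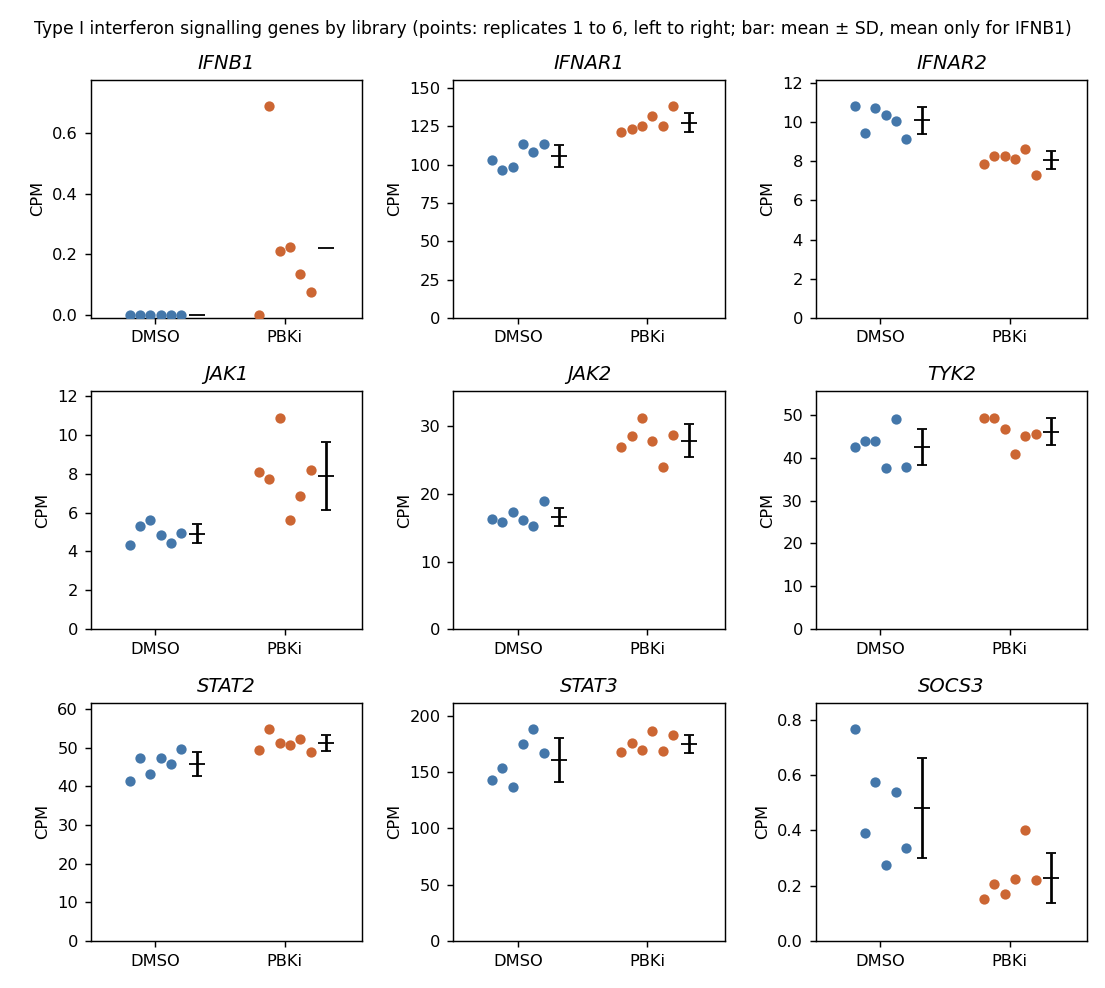
CPM of the 9 genes in each of the 12 libraries, with points for replicates 1 to 6 from left to right and a bar for the mean and SD of each group (mean only for IFNB1). The groups are apart for IFNAR1, IFNAR2 and JAK2, JAK1 overlaps only through PBKi replicate 4 at 5.61 CPM, and TYK2, STAT2 and STAT3 overlap.

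IFNB1 (ENSG00000171855), minus strand of chromosome 9 of GRCh37, 21077103 to 21077941, encodes interferon beta and has no introns. It had 0 counts in each of the 6 DMSO libraries. The PBKi libraries, replicates 1 to 6, had 0, 10, 5, 5, 2 and 1 counts, 23 in all. Reads were thus found in 5 of 6 PBKi libraries and in no DMSO library. The reads came from every lane, as the sums over the PBKi libraries were 4, 8, 5 and 6 in lanes 5 to 8.

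In CPM, IFNB1 in PBKi had a lowest value of 0, a median of 0.173 and a highest of 0.690. The pooled level was 0.225 CPM in PBKi (95% exact Poisson interval 0.142 to 0.337, counting error only), and the 0 in DMSO allows up to 0.0309 CPM, the level of 3 counts over the group. Reckoned against that limit, IFNB1 was 4.61-fold higher at the lower end of the PBKi interval, and 7.27-fold higher at the pooled level. PBKi replicate 2 held 10 of the 23 reads, and without it the pooled level was 0.148 CPM (0.0787 to 0.253), 2.55-fold higher at the lower end of that interval. The two-sided 95% limit of the DMSO level is wider, at 0.0380 CPM. These folds cover counting error only and are not bounds on the group difference, since counts also varied between libraries. A two-sided exact permutation test on the CPM of the 12 libraries gave p = 0.0152. These counts remain few, and in a fit with no filter on low counts, where 33052 genes were tested, edgeR's adjusted p was 4.81e-05. The immune marker sum given above was also higher in PBKi, and LYZ, like IFNB1, had reads in PBKi alone (15 counts), while PTPRC had 0 to 3 counts per library. CD14 had fewer counts in PBKi (21) than in DMSO (27). The part of these markers in the IFNB1 reads was not tested.

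Few or no reads were assigned to other interferons. Of 20 further listed ligands, 17 had no read in any of the 12 libraries and none was tested. Most of these 17 are interferon alpha genes, which are closely related in sequence. Reads without a unique alignment were not counted, so a count of 0 in these genes does not show silence. In IFNA1, 63.4% of exon bases are also overlapped by another gene. IFNL1, an interferon of the lambda class that uses a different receptor, had 1 count over the DMSO libraries and 14 over the PBKi libraries (6, 3, 2, 2, 1 and 0 in replicates 1 to 6). The counts of IFNL2 and IFNL3 are uncertain, since these genes are near-identical copies.

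Among the receptor chains, IFNAR1 and IFNAR2 moved in opposite directions. IFNAR1 (ENSG00000142166, plus strand of chromosome 21 of GRCh37, 34696692 to 34732170) holds TYK2. Its lowest, median and highest values were 96.8, 105.8 and 113.8 CPM in DMSO, and 121.5, 125.3 and 138.3 CPM in PBKi. Every PBKi library lay above every DMSO library. The mean was 106 ± 7.32 CPM in DMSO and 128 ± 6.35 CPM in PBKi (SD, n = 6 each), and the log2 fold change was 0.27 (standard error 0.054, 95% interval 0.16 to 0.39, edgeR adjusted p = 0.000671), or 1.21-fold.

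IFNAR2 (ENSG00000159110, plus strand of chromosome 21 of GRCh37, 34577587 to 34637980) is the chain that binds interferon most tightly and holds JAK1. Its lowest, median and highest values were 9.13, 10.2 and 10.8 CPM in DMSO, and 7.30, 8.19 and 8.64 CPM in PBKi. Here every PBKi library lay below every DMSO library. The mean went from 10.1 ± 0.682 to 8.08 ± 0.459 CPM (SD, 6 libraries each), and the log2 fold change was -0.33 (standard error 0.075, 95% interval -0.49 to -0.17, edgeR adjusted p = 0.00215), and in replicates 4 to 6 alone the adjusted p was 0.131. A share of 27.7% of its exon bases is overlapped by other genes, mainly the readthrough transcript IFNAR2-IL10RB (0 to 4 counts per library), and reads there may have been dropped as ambiguous.

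The receptor genes of chromosome 21 lie next to each other in the order IFNAR2, IL10RB, IFNAR1 and IFNGR2. IL10RB, a chain of the interleukin 10 and lambda interferon receptors, had 11.1 ± 1.10 CPM in DMSO and 12.3 ± 1.36 in PBKi (log2 fold change 0.14, edgeR adjusted p = 0.215), with 21.6% of its exon bases overlapped by the same readthrough transcript. IFNGR2, a chain of the interferon gamma receptor, had 20.8 ± 1.90 and 20.8 ± 1.74 CPM (adjusted p = 0.961). Its partner chain IFNGR1, encoded elsewhere, was lower in PBKi, at 43.9 ± 2.30 CPM against 57.6 ± 7.43 (log2 fold change -0.40, adjusted p = 0.000408). Of the 5 further receptor chains listed, 3 were tested, and IFNGR1 alone was called.

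The kinases differed in size of change. JAK2 (ENSG00000096968, plus strand of chromosome 9 of GRCh37, 4984390 to 5129948) serves cytokine receptors including that of interleukin 6. Its lowest, median and highest values were 15.2, 16.3 and 19.0 CPM in DMSO, and 23.9, 28.2 and 31.3 CPM in PBKi. The groups stood apart. The mean went from 16.6 ± 1.35 to 27.9 ± 2.41 CPM (SD, 6 libraries each), and the log2 fold change was 0.74 (standard error 0.072, 95% interval 0.59 to 0.89, edgeR adjusted p = 3.54e-07), or 1.67-fold.

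JAK1 (ENSG00000162434, minus strand of chromosome 1 of GRCh37, 65298906 to 65533437), the kinase used by all interferon receptors, had few reads in both groups, at 41 to 156 counts in DMSO and 102 to 257 in PBKi. Its lowest, median and highest values were 4.36, 4.89 and 5.62 CPM in DMSO, and 5.61, 7.91 and 10.9 CPM in PBKi. In 5 of 6 PBKi libraries it exceeded the highest DMSO library, and replicate 4 fell just within the DMSO range. The mean went from 4.92 ± 0.492 to 7.89 ± 1.75 CPM (SD, 6 libraries each), and the log2 fold change was 0.67 (standard error 0.139, 95% interval 0.38 to 0.97, edgeR adjusted p = 0.000862). JAK1 spread more widely in PBKi than in DMSO, and in replicates 4 to 6 alone the log2 fold change was 0.51 (adjusted p = 0.0614). In its exons, 7.33% of bases are overlapped by other genes, mainly LINC01359 (2 to 10 counts per library).

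TYK2 (ENSG00000105397, minus strand of chromosome 19 of GRCh37, 10461209 to 10491284) had lowest, median and highest values of 37.7, 43.2 and 49.0 CPM in DMSO, and 40.8, 46.0 and 49.3 CPM in PBKi. The groups overlapped almost entirely, with 2 PBKi libraries above the highest DMSO library. The log2 fold change was 0.12 (standard error 0.068, 95% interval -0.028 to 0.26, edgeR adjusted p = 0.184). Without DMSO replicate 5, which was the highest of its group, the log2 fold change was 0.16 and the adjusted p was 0.0451.

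The transcription factors changed little. STAT2 (ENSG00000170581, minus strand of chromosome 12 of GRCh37, 56735381 to 56753987) provides the activating domain of ISGF3. Its lowest, median and highest values were 41.4, 46.5 and 49.6 CPM in DMSO, and 49.0, 50.9 and 54.7 CPM in PBKi. In 4 of 6 PBKi libraries it exceeded the highest DMSO library. The log2 fold change was 0.17 (standard error 0.054, 95% interval 0.052 to 0.28, edgeR adjusted p = 0.0202). Of the 5 calls it had the highest adjusted p, which was 0.0570 without DMSO replicate 1 and 0.467 in replicates 4 to 6 alone.

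STAT3 (ENSG00000168610, minus strand of chromosome 17 of GRCh37, 40465342 to 40540558), the main factor of interleukin 6 signalling, had lowest, median and highest values of 137.0, 160.3 and 188.1 CPM in DMSO, and 168.1, 172.7 and 186.6 CPM in PBKi. No PBKi library lay above the highest DMSO library, and the DMSO libraries were the more spread (SD 19.6 against 7.95 CPM). The log2 fold change was 0.13 (standard error 0.070, 95% interval -0.017 to 0.28, edgeR adjusted p = 0.145). It was 0.26 in replicates 1 to 3 (adjusted p = 0.00185) and passed the threshold without DMSO replicate 5 as well (0.18, adjusted p = 0.0244) and with a covariate for the replicate sets (0.14, adjusted p = 0.0369). The difference between the replicate sets 4 to 6 and 1 to 3 in its log2 fold change was -0.22 (adjusted p of the interaction 0.927).

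The inhibitor SOCS3 (ENSG00000184557, minus strand of chromosome 17 of GRCh37, 76352859 to 76356158) was close to silent. Its counts in replicates 1 to 6 were 16, 5, 16, 4, 5 and 4 in DMSO, and 2, 3, 4, 5, 6 and 3 in PBKi, 50 and 23 in all. In CPM the lowest, median and highest values were 0.276, 0.466 and 0.766 in DMSO, and 0.150, 0.214 and 0.402 in PBKi. All PBKi libraries except replicate 5 lay below the lowest DMSO library.

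The pooled level of SOCS3 was 0.515 CPM in DMSO (95% exact Poisson interval 0.382 to 0.679) and 0.225 CPM in PBKi (0.142 to 0.337). The ratio of DMSO to PBKi was 2.29, with a counting interval of 1.37 to 3.94. The difference in mean level of PBKi from DMSO was -0.403 CPM in replicates 1 to 3 (exact permutation p = 0.1) and -0.102 CPM in replicates 4 to 6 (p = 0.5), against -0.252 CPM over all. A two-sided exact permutation test gave p = 0.0130, but p = 0.184 with lanes 6 to 8 alone, where the counts were fewer. With no filter on low counts, the log2 fold change was -1.14 (standard error 0.40, edgeR adjusted p = 0.0321).

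For each gene tested, the gene with the most similar course over the 12 libraries was sought among 9851 genes by Pearson's r of log2 CPM. These points share the contrast between DMSO and PBKi and the depth of each library, and r is given as a description. The closest gene to IFNAR1 was ATP9A (r = 0.974, and 0.894 with the group means removed), to JAK2 it was ASPH (0.988 and 0.839), and to JAK1 it was CAPRIN2 (0.954 and 0.920). IFNAR2 was closest to SQLE (0.959 and 0.811), and STAT2 was closest to TMEM192 (0.919 and 0.802). For TYK2 and PGP (0.911 and 0.900) and for STAT3 and HDLBP (0.980 and 0.980), which moved little with treatment, r was nearly the same with the group means removed.

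The other genes of the pathway were taken from lists of 90 genes, 89 of which had a row. Of these, 56 passed the filter, with 20 called higher, 9 called lower and 27 not called, beside 20.1% higher and 21.6% lower of all genes tested. Their median log2 fold change was 0.051. The 20 called higher include STAT6 and 7 interferon-stimulated targets that needed the PBKi libraries to pass the filter. Nothing is therefore read from that total against the share of all genes. The interferon-stimulated targets listed were 18, of which 14 were tested, with 11 called higher and none called lower. For 7 of the 14 (IFIT1, IFIT2, IFIT3, IFI27, IFI44, OAS1 and RSAD2) all 6 PBKi libraries reached 10 counts but fewer than 6 DMSO libraries did, from 0 in IFIT3 and RSAD2 to 5 in IFI44. The filter thus favoured genes high in PBKi, and nothing is read from the count of these 7. Of the other 7, with at least 10 counts in all 6 DMSO libraries, 4 were called higher (IFI6, ISG15, MX1 and OAS3) and 3 were not called.

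The targets named by size of change were IFIT2, RSAD2, IFIT3 and IFI44, all among those that needed the PBKi libraries to pass the filter, and their fitted changes rest on few DMSO counts. IFIT2, which binds foreign RNA, had 0.324 to 0.829 CPM in DMSO (3 to 14 counts) and 64.5 to 79.8 CPM in PBKi (log2 fold change 6.97). RSAD2, which encodes the antiviral enzyme viperin, went from 0.202 ± 0.214 to 19.2 ± 2.61 CPM (log2 fold change 6.31), IFIT3 from 0.283 ± 0.180 to 19.8 ± 3.79 CPM (6.07), and IFI44 from 1.08 ± 0.464 to 33.8 ± 7.64 CPM (4.87). ISG15, a ubiquitin-like modifier that was well measured in both groups, went from 11.6 ± 2.88 to 39.3 ± 3.95 CPM (log2 fold change 1.77, edgeR adjusted p = 2.13e-09). BST2, IFITM1 and IRF7 were tested and not called. PBKi replicate 1, which had no IFNB1 read, had 70.7 CPM of IFIT2, 18.0 CPM of RSAD2 and 43.8 CPM of ISG15, each within the range of the other 5 PBKi libraries or, for ISG15, above it. With 13122415 reads on genes in that library, a count of 0 does not show that IFNB1 was absent from it.

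**Figure D3:**
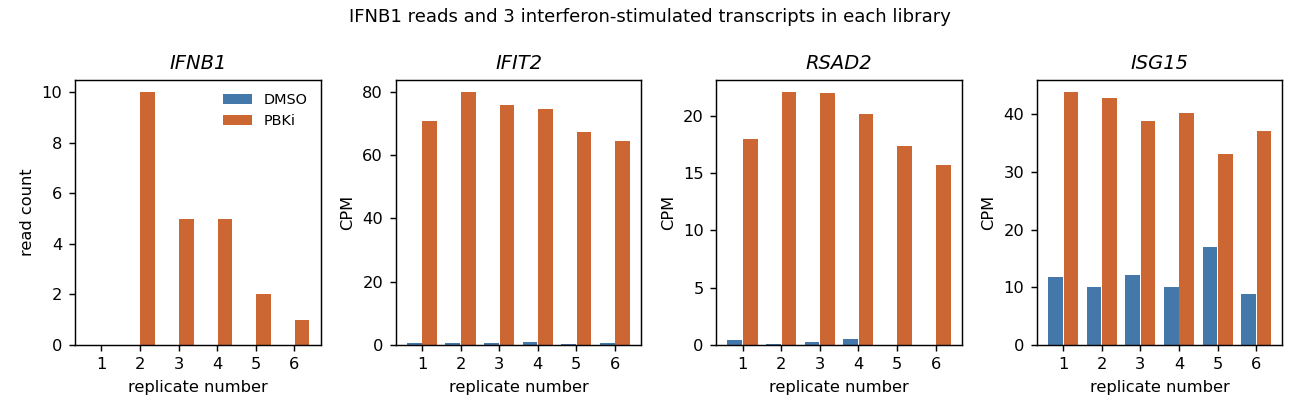
IFNB1 read counts and the CPM of IFIT2, RSAD2 and ISG15 in each library by replicate number, with bars for DMSO and PBKi. IFNB1 reads number 0 to 10 in PBKi and 0 in all DMSO libraries, while IFIT2 lies between 64.5 and 79.8 CPM in every PBKi library, replicate 1 included. A count of 0 in a single library does not show absence of the transcript.

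The other JAK and STAT genes moved both ways. IRF9, the DNA-binding part of ISGF3, had 4.55 ± 1.24 and 5.25 ± 0.904 CPM (log2 fold change 0.15, edgeR adjusted p = 0.491). STAT6, the factor of interleukin 4 signalling, was scarce but higher in PBKi, at 1.59 ± 0.199 CPM against 0.674 ± 0.211 (log2 fold change 1.34, adjusted p = 0.000122), and needed the PBKi libraries to pass the filter. STAT5B was lower, at 35.5 ± 1.43 CPM against 41.8 ± 1.43 (log2 fold change -0.23, adjusted p = 0.00109), although reads alike between STAT5A and STAT5B leave its count uncertain. JAK3 had 1.22 ± 0.381 and 0.870 ± 0.152 CPM (log2 fold change -0.41, adjusted p = 0.160).

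Of 11 listed genes of the gp130 family, 8 were tested, with 2 called higher, 1 lower and 5 not called. IL6R, which binds interleukin 6, had 119.99 to 140.4 CPM in DMSO and 183.3 to 204.3 CPM in PBKi (log2 fold change 0.56, edgeR adjusted p = 1.39e-07). IL6ST, which encodes gp130, had 101.1 to 128.2 CPM in DMSO and 145.5 to 178.2 CPM in PBKi (log2 fold change 0.55, adjusted p = 4.32e-06). In neither gene did the groups overlap. IL11RA, the receptor of interleukin 11, was lower (log2 fold change -0.52, adjusted p = 0.00546). LIFR (log2 fold change -0.097, adjusted p = 0.320) and OSMR (0.039, adjusted p = 0.673), which also pair with gp130, were not called. IL6 itself had 1 count in all.

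Of 12 listed STAT3 targets, 10 were tested, with 4 called higher and 2 lower, beside 20.1% and 21.6% of all genes tested. The 2 not tested for low counts were FOS and TIMP1. FOS had 134 counts in DMSO (1 to 55 per library) and 23 in PBKi (3 to 6 per library). TIMP1 had 1 count in DMSO and 4 in PBKi. JUNB, a subunit of the AP-1 factor, went from 26.4 ± 6.59 to 43.4 ± 2.34 CPM (log2 fold change 0.73, edgeR adjusted p = 4.51e-05), and CEBPD went from 5.92 ± 1.35 to 7.24 ± 0.612 CPM (0.33, adjusted p = 0.0357). BIRC5, the inhibitor of apoptosis survivin, fell (log2 fold change -0.41, adjusted p = 0.000491), as did the cell cycle regulator CCND1 (-0.30, adjusted p = 0.00362).

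Of 15 tested inhibitors of the pathway, 4 were called lower, 1 higher and 10 not, beside 21.6% lower and 41.7% called in either direction of all genes tested. SOCS2, which restrains growth hormone signalling, had 7.24 to 9.82 CPM in DMSO and 4.53 to 5.09 CPM in PBKi (log2 fold change -0.94, edgeR adjusted p = 2.31e-07). CISH, of the same family, went from 2.74 ± 0.472 to 1.76 ± 0.379 CPM (-0.64, adjusted p = 0.00421). PIAS3, an inhibitor of STAT3, went from 55.2 ± 4.81 to 40.3 ± 2.26 CPM (-0.45, adjusted p = 1.53e-05). PTPN2, a phosphatase that acts on JAK1 and on STAT proteins, went from 43.0 ± 2.41 to 37.1 ± 1.90 CPM (-0.21, adjusted p = 0.00459). USP18, which is induced by interferon and blocks IFNAR2, had 17.5 ± 1.67 and 18.2 ± 1.12 CPM (log2 fold change 0.062, adjusted p = 0.507).

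**Figure D4:**
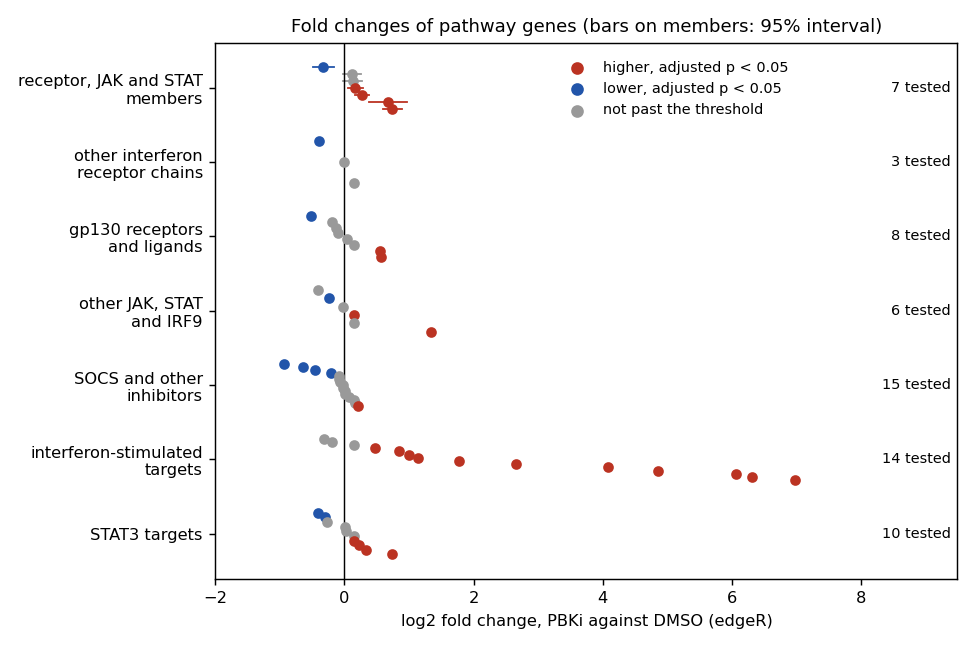
Log2 fold change of PBKi against DMSO for each tested gene, in rows by list, with red for genes called higher, blue for genes called lower and grey for genes not called, and with 95% intervals on the 7 genes of the top row. Those genes lie between -0.33 and 0.74, while 11 of the 14 interferon-stimulated targets are called higher, from 0.47 (OAS3) to 6.97 (IFIT2), beside 20.1% of all genes tested. Of these 11, 7 needed the PBKi libraries to pass the filter.

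The direction of all 7 changes was the same under every alternative tried. Leaving out each library in turn kept the log2 fold change of IFNAR1 between 0.25 and 0.30, IFNAR2 between -0.34 and -0.29, JAK1 between 0.55 and 0.78 and JAK2 between 0.71 and 0.79. The adjusted p stayed below the threshold in each of these fits. Those of TYK2, STAT2 and STAT3 lay closer to 0, and each crossed the threshold in 1 of the 12 fits.

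**Figure D5:**
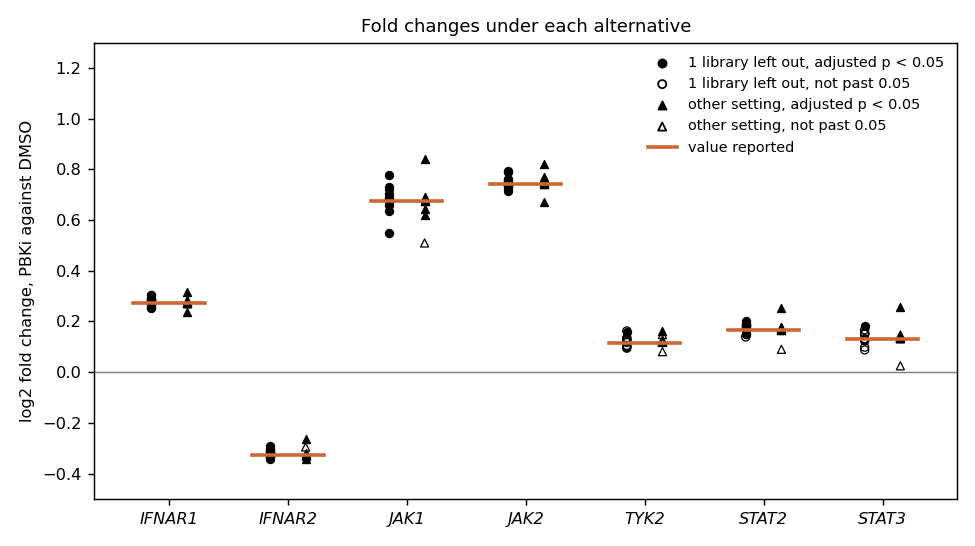
Log2 fold change of the 7 tested genes under each alternative, with circles for fits that leave out 1 library, triangles for other settings, filled symbols for an adjusted p below 0.05 and a line for the value reported. JAK2 and IFNAR1 stay filled throughout, from 0.67 to 0.82 and from 0.24 to 0.32 over the other settings, and TYK2, STAT2 and STAT3 hold both filled and open symbols.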

How the data were processed

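RNA libraries (TruSeq kit) were sequenced as 40-base single-end reads. The authors aligned them to GRCh37 with TopHat2 2.0.4 and deposited unnormalised read counts per gene from HTSeq 0.5.3p9, in 47 lane files of 54127 gene rows, and tested them with DESeq 1.10.1. The RNA was from flow sorted cells per the labels, while the study's methods name no sort. The strand setting of the counting is not given in the sources used here. Reads outside genes (5.74% to 9.30% of the total) and ambiguous reads (3.87% to 4.35%) were left out. Reads without a unique alignment were left out as well, and these percentages do not include them. Lanes were summed, since counts of the lanes of 1 library agreed within sampling noise (chi-square over its degrees of freedom 0.993 to 1.02, against 4.11 to 25.2 between libraries of a group). DMSO replicate 5 had 3 lanes and the others 4.

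Groups came from the labels. PBKi was compared with DMSO by edgeR 4.0.16 (quasi-likelihood test, TMM, no covariates, R 4.3.3) over 14505 genes that reached 10 counts in 6 or more libraries, with Benjamini-Hochberg adjustment at 0.05, and the fit was tested on simulated data. IFNB1 and SOCS3 were compared by exact permutation over the 924 ways to split 12 libraries. Likeness used log2 CPM (prior count 2) and genes of mean log2 CPM of at least 3. Symbols were matched for 47098 rows, and 127 of the 129 listed genes had a row. Gene coordinates are from GENCODE mapped to GRCh37, which is newer than the annotation of the authors, and promoters are from RefSeq. Every gene of the set is named, and of each other list those called, at most 4 by absolute log2 fold change, although some are not reported here. IL10RB, IFNGR2, IRF9, JAK3, USP18, ISG15, LIFR, OSMR, IFNL1, IFNA1, IL6, FOS and TIMP1, the other targets, the markers and the 3 stimulated targets not called, were named as context after their values were seen. The genes and lists were chosen with earlier results of these data known. Alternatives were DESeq2 1.42.0, RLE factors, limma-voom (limma 3.58.1), other filters, lanes 6 to 8, a replicate block, replicate sets (1 to 3 and 4 to 6) and leaving out each library. The length of all exons, as another length for levels, was chosen after seeing the data. Protein sequences are not used here.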

Additional observations from a re-analysis of the deposited data

Results flagged for a closer look

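Of 18 groups of 6 values (9 genes in DMSO and in PBKi), 2 had a library standing apart from the rest by Dixon's test at the 95% level, which chance gives in about 1 of 20 groups. IFNB1 in DMSO, at 0 in every library, has no range and could not be flagged. Both flagged groups rest on few counts, where that rate may not hold. PBKi replicate 2 had 0.690 CPM of IFNB1 (10 counts), a gap to the next library of 0.677 of the range of the group. Without that library the IFNB1 difference between PBKi and DMSO was 0.128 CPM, against 0.222 CPM with it. PBKi replicate 5 had 0.402 CPM of SOCS3 (6 counts), with a gap of 0.712 of the range, and was the only PBKi library within the DMSO range.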

How the results depend on the processing

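No result reversed. IFNAR1 and JAK2 kept their calls in all alternatives. With no low-count filter, 2 of the genes were called lower (IFNAR2 and SOCS3), and STAT2 had an adjusted p of 0.0706. In replicates 4 to 6 alone, with 3 libraries a group, 2 of the genes were called higher and 0 lower, against 1273 higher and 1206 lower of all genes. Without 1 library at a time, the genes called higher numbered 3 to 6 and those called lower 1 to 1, the other pathway genes 15 to 21 higher and 9 to 10 lower, and all genes 2531 to 3341 higher and 2586 to 3213 lower. The low end of 3 came without DMSO replicate 1 and the high end of 6 without DMSO replicate 5. The IFNB1 difference was then 0.128 to 0.266 CPM (exact permutation p = 0.00216 to 0.0281) and that of SOCS3 -0.293 to -0.195 CPM (p = 0.00649 to 0.0238).

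Libraries of the same replicate number deviated together weakly (correlations of 0.0887 to 0.299, mean 0.198), and 1 of the 6 pairs was not over 0.1. The mean was -0.040 for different numbers, and 4 of 6 correlated best with their own number. Some pairing by number is thus possible, and the main fit did not use it. With the replicate number as a block, 5 of the genes were called higher (STAT3 added, log2 fold change 0.14, adjusted p = 0.0420), with 3485 higher and 3803 lower of all genes, and the IFNB1 difference had p = 0.0625 by exact permutation of signs, the smallest that the 5 pairs with a difference allow. TYK2 passed in replicates 1 to 3 alone (0.16, adjusted p = 0.0330). In sets of 3 against 3 the exact permutation test cannot go below 0.1. The IFNB1 difference was 0.300 CPM in replicates 1 to 3 (exact permutation p = 0.4) and 0.143 CPM in replicates 4 to 6 (p = 0.1). The causes were not tested. Few counts limit IFNB1 and SOCS3, and intervals cover counting error only.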
